A study of Drosophila melanogaster with 37 samples.

Results

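On the X chromosome of male S2 cells, 301 of the 766 sites bound by CLAMP in control cells were also bound by GAF. The 301 shared sites are the subject of this account, and they make up 10.9% of the 2751 CLAMP control sites found over all 6 chromosome arms. They were chosen by the peak calls of the control cells themselves. Peaks of the 3 CLAMP lists under GFP RNAi were merged where they shared 1 bp, as were those of the 3 GAF lists, and a site was kept where at least 2 lists of its antibody called it. A CLAMP site on X that overlapped a GAF site by at least 1 bp was a shared site. The control CLAMP and GAF values below are therefore a description of the sites, while the lists of RNAi against either factor and all MSL3 lists took no part in choosing them.

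CLAMP contacts GA-rich DNA through zinc fingers and brings the MSL complex to the X chromosome of male flies. GAF, the GAGA factor encoded by trl, binds GAGA sequences at many promoters and is known for keeping regulatory chromatin accessible. The MSL complex acetylates histones along active genes of the male X and so raises their transcription, and MSL3 is its chromodomain subunit, which helps it to bind active genes. Because CLAMP and GAF recognise related sequences, a site occupied by both raises the question of how each factor behaves when the other is depleted.

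The cells were S2 cells, an established male line of Drosophila melanogaster, and no allele or transgene is given in the labels. All groups received 4.5 ug/mL of dsRNA: against GFP as the control, against GAF, or against CLAMP. Chromatin was precipitated with antibodies to CLAMP, GAF or MSL3. Under GFP RNAi there were 3 CLAMP, 3 GAF and 4 MSL3 lists, under GAF RNAi 2, 2 and 3, and under CLAMP RNAi 2, 3 and 3. The numbering of the control CLAMP libraries runs 1, 2 and 4. Nothing in the labels says whether replicates came from separate cultures, so the p values below measure the spread between these libraries, which may be technical.

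The lists differ greatly in length. Peaks on 2L, 2R, 3L, 3R, 4 and X numbered 430 to 10984 per library for CLAMP and 2676 to 29233 for GAF, and MSL3 regions 103 to 33316. After CLAMP RNAi the CLAMP lists held 749 and 430 peaks, against 2178 to 10984 under GFP RNAi and 7417 and 7524 under GAF RNAi. After GAF RNAi the GAF lists held 4220 and 18267 peaks, a range that lies inside that of the GFP RNAi lists (2676 to 29233), so list length alone does not show the depletion of GAF. Read counts are not part of the lists and the depth is unknown. A fold enrichment is the value the authors' peak caller gave a peak within its own library, and it is used here to describe and rank sites within a library.

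The shared sites were broader than the X sites of either factor alone. Their median width was 503 bp (range 211 to 1754), beside 375 bp for the 465 X CLAMP sites without GAF, 404 bp for the 311 X GAF sites without CLAMP and 552 bp for the 1053 shared sites on autosomes. Width is part of what the overlap rule selects, so these medians carry no test. The overlap itself had a median of 388 bp and ranged from 24 to 1732 bp. In 89 members the CLAMP site lay wholly inside its GAF site, and in 95 the GAF site lay wholly inside the CLAMP site. The 301 members rest on 296 distinct GAF sites, and 4 members touched 2 GAF sites each.

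Support from the control lists varied among members. All 3 control CLAMP lists called 217 of them and 2 lists called the other 84. The GAF site was called in 3 control lists at 234 members and in 2 lists at 67, and 166 members had all 6 lists. At the edge of the overlap rule, 3 members shared only 24 bp with their GAF site, at X 6551451 to 6551829, X 7987025 to 7987910 and X 9199352 to 9199772. Just outside it were the X CLAMP sites at 1988069 to 1988327, 10105999 to 10106332 and 12557924 to 12558187, which lay 56, 95 and 127 bp from the nearest GAF site. Of the 465 X CLAMP sites without GAF, 47 overlapped a peak of 1 control GAF list and 418 overlapped none.

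Along X the median gap to the next member was 21736.5 bp, with a first quartile of 3237.5 bp. For X CLAMP sites without GAF these gaps were 19967.5 and 6796 bp, and for X GAF sites without CLAMP 28409 and 4390.25 bp. Of the members, 170 fell into 61 chains in which neighbours lay within 10 kb. The longest chain held 6 members between X 3667153 and X 3675341. At its last member, X 3674683 to 3675341, CLAMP enrichment under GFP RNAi was 8.02, 5.94 and 2.90 in replicates 1, 2 and 4, and GAF enrichment was 8.97, 6.22 and 3.81 in replicates 1 to 3. That member was also the only one of the 6 called in both CLAMP lists after CLAMP RNAi. None of the other 5 was called in an MSL3 list, and X 3674683 to 3675341 was called in 1 of 10. In bins of 1 Mb, members were most frequent between 3 and 4 Mb (28) and between 7 and 8 Mb (26), and none lay between 22 and 23 Mb. Over the 23 bins, counts of members followed those of GAF sites without CLAMP (Spearman's rho 0.810) more closely than those of CLAMP sites without GAF (0.421), as a description over bins of 1 chromosome.

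How strongly CLAMP marked a shared site said little about how strongly GAF did. The mean control rank of a member, as a percentage of list length with 0 the best, ranged from 0.245 to 89.4 for CLAMP and from 0.143 to 91.5 for GAF. Over the 301 members the ranks of both factors had a Spearman's rho of −0.0131. Between replicates of the same antibody, fold enrichment over members gave rho of 0.525 to 0.695 for CLAMP and 0.692 to 0.727 for GAF. Between CLAMP and GAF libraries rho ran from −0.163 to 0.0404. These are correlations across sites that share libraries, and are given with no test.

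Most of the 10 members best ranked by both factors lay between X 7193663 and X 10678988, and the others began at X 1513053 and X 19576890. The first, X 19576890 to 19577733, had CLAMP enrichment of 8.01, 6.98 and 3.70 and GAF enrichment of 12.4, 11.8 and 7.59 under GFP RNAi. The second, X 10678401 to 10678988, had 6.32, 5.94 and 5.22 for CLAMP and 12.3, 12.4 and 8.71 for GAF. The third, X 9580259 to 9581183, had 10.6, 7.39 and 7.59 for CLAMP and 9.86, 9.60 and 6.39 for GAF. The next places in that order lay side by side, at X 7954886 to 7955761 and X 7952396 to 7953039. Of the 10 best ranked members, 5 were called in both CLAMP lists after CLAMP RNAi, and all 10 were called in each of the 8 GAF lists.

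Averaged over pairs of libraries, CLAMP and GAF summits within shared sites lay further apart than summits of the same antibody. In the libraries of RNAi against either factor, the median distance between summits of 2 CLAMP libraries was 9 to 22 bp over 6 pairs, and between 2 GAF libraries 9 to 45 bp over 10 pairs. GAF pairs with GAF RNAi replicate 2 were at 35 to 45 bp, and GAF pairs without it at 9 to 17 bp. Between a CLAMP and a GAF library the median distance was 32 to 69.5 bp over 20 pairs. In those 20 pairs the summits lay within 50 bp of each other at 35.4% to 62.3% of the sites called in both. For 2 CLAMP libraries that share was 82.9% to 94.4%. For 2 GAF libraries it was 54.5% to 61.6% in pairs with GAF RNAi replicate 2 and 79.1% to 93.8% in the others. The separation therefore does not describe every site. The mean distance between antibodies exceeded that within antibodies by 26.9 bp (exact permutation p = 0.00794 over the antibody labels of 4 CLAMP and 5 GAF libraries, the smallest possible). In the control libraries, which chose the sites, the corresponding medians were 13 to 14 bp, 10 to 19 bp and 37 to 55 bp. At the autosomal shared sites the separation was 27.0 bp (exact permutation p = 0.00794), so nothing in it is particular to X. The comparison of summits was added after the data had been seen.

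**Figure D1:**
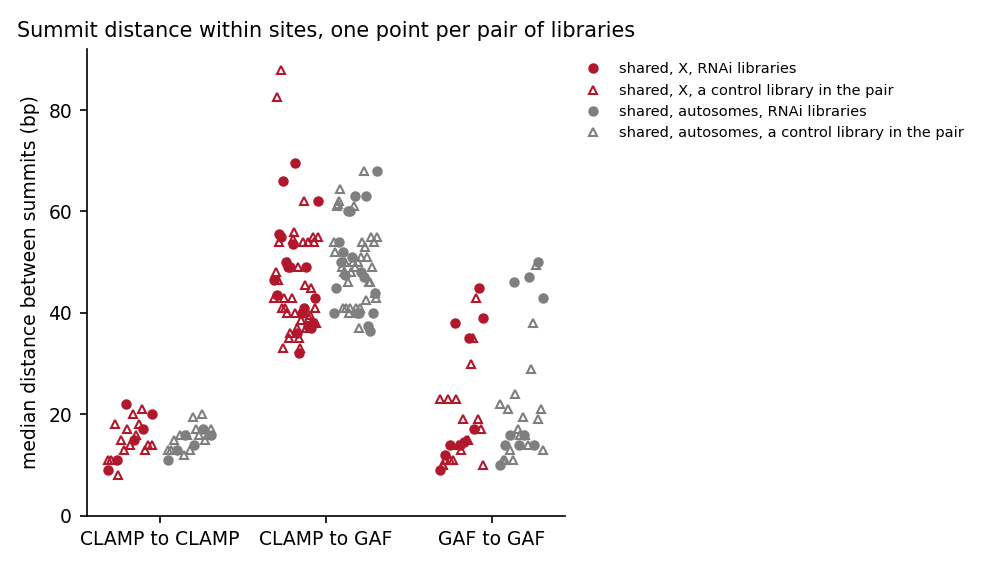
Median distance in bp between the summits of 2 libraries within a shared site, one point per pair of libraries, for X (red) and autosomal (grey) shared sites; filled circles are pairs of RNAi libraries and open triangles are pairs with a GFP RNAi library. CLAMP-to-GAF medians of RNAi libraries on X (32 to 69.5 bp) lie above the CLAMP-to-CLAMP medians (9 to 22 bp) and overlap with the upper GAF-to-GAF medians (9 to 45 bp). The GAF-to-GAF medians of RNAi libraries on X above 17 bp are all from pairs with GAF RNAi replicate 2.

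CLAMP calls at the shared sites were few after CLAMP RNAi and numerous after GAF RNAi. Under GFP RNAi, CLAMP libraries 1, 2 and 4 called 100%, 80.1% and 92.0% of members. After GAF RNAi the shares were 92.7% and 84.4%, and after CLAMP RNAi they were 28.9% and 18.6%. The GAF RNAi libraries lay inside the control range and the CLAMP RNAi libraries lay below all others. The mean was 23.8% ± 7.28 after CLAMP RNAi and 88.5% ± 5.87 after GAF RNAi (SD, n = 2 each), a difference of −64.8 points for which the exact two-sided permutation test could not give less than p = 0.333, and gave that value (adjusted over 6 tests, 0.45). The CLAMP lists were also shorter after CLAMP RNAi, as given above, and a change of CLAMP at the sites and a shorter list cannot be told apart in this measure. When each CLAMP list was taken at the 430 peaks of the shortest, members were called at 19.6% and 18.6% after CLAMP RNAi, at 23.6% and 23.9% after GAF RNAi and at 24.6%, 24.6% and 22.3% under GFP RNAi, a difference between the RNAi treatments of −4.65 points (exact permutation p = 0.333). At that length no CLAMP library, the controls included, called more than 24.6% of the members, so the equal-length value does not bear on the size of the difference in full lists.

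Of the members, 54 (17.9%) were called in both CLAMP lists after CLAMP RNAi, where 14% of all CLAMP control sites were. The same call was made for 9.89% of X CLAMP sites without GAF and for 16.4% of shared autosomal sites. A further 35 members were in 1 of the lists and 212 in neither. The call of a loss, in every control list and in neither list after CLAMP RNAi, was met by 130 members (43.2%), where 39.5% of all CLAMP sites met it. After GAF RNAi, 252 members (83.7%) were called in both CLAMP lists, where 78% of all CLAMP sites were, and 4 (1.33%) were lost, where 0.545% of all were. The losses rest partly on the control lists that chose the sites. In lists of equal length, 0 members were lost after CLAMP RNAi (430 peaks) and 10 after GAF RNAi (2178 peaks). Each length is that of the shortest list in its comparison, so these counts are not at the same length. The 4 losses after GAF RNAi became 16 without GAF RNAi replicate 1, 16 without control replicate 2 and 8 without control replicate 4.

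Within the RNAi libraries, the share of members called was set against the share of X CLAMP sites without GAF. The latter was 18.7% and 11.2% after CLAMP RNAi and 93.5% and 84.3% after GAF RNAi. Shared sites minus these sites gave 8.81 points ± 1.96 after CLAMP RNAi and −0.387 points ± 0.666 after GAF RNAi (SD, n = 2 each). The difference between treatments was 9.19 points (exact permutation p = 0.333, the smallest possible; adjusted 0.45). Over the 4 RNAi libraries the shared sites were above in 3 of 4, by 4.21 points (exact sign-flip permutation p = 0.375; adjusted 0.45), which did not pass the threshold of 0.05. Without CLAMP RNAi replicate 1 the excess was 2.22 points, and with sites rebuilt without control GAF replicate 1 or 2 it was 2.70 and 2.31. The difference between treatments was 2.90 points at the sites called in every control list and 2.13 and 3.41 points with sites rebuilt without control GAF replicate 1 or 2. In lists of 430 peaks it turned to −6.59 points, so its direction depended on list length. With peaks of −log10 q of at least 5 it was −3.44 points. CLAMP RNAi replicate 2 had no peak past that limit (highest −log10 q 2.93), so this value cannot show a direction. The excess over the 4 libraries was 11.8 points in lists of 430 peaks (exact sign-flip permutation p = 0.125, the smallest possible).

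The members that kept CLAMP calls after CLAMP RNAi were those of strong CLAMP enrichment in control cells. The median control CLAMP rank was 6.80% of the list for the 54 members in both CLAMP RNAi lists, 12.4% for the 35 in 1 list and 40.4% for the 212 in neither. Control GAF rank did not follow this order, with medians of 40.2%, 24.2% and 34.6%. Width did, with medians of 777, 694 and 431 bp. These are descriptions, since the control ranks belong to the lists that chose the sites.

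**Figure D2:**
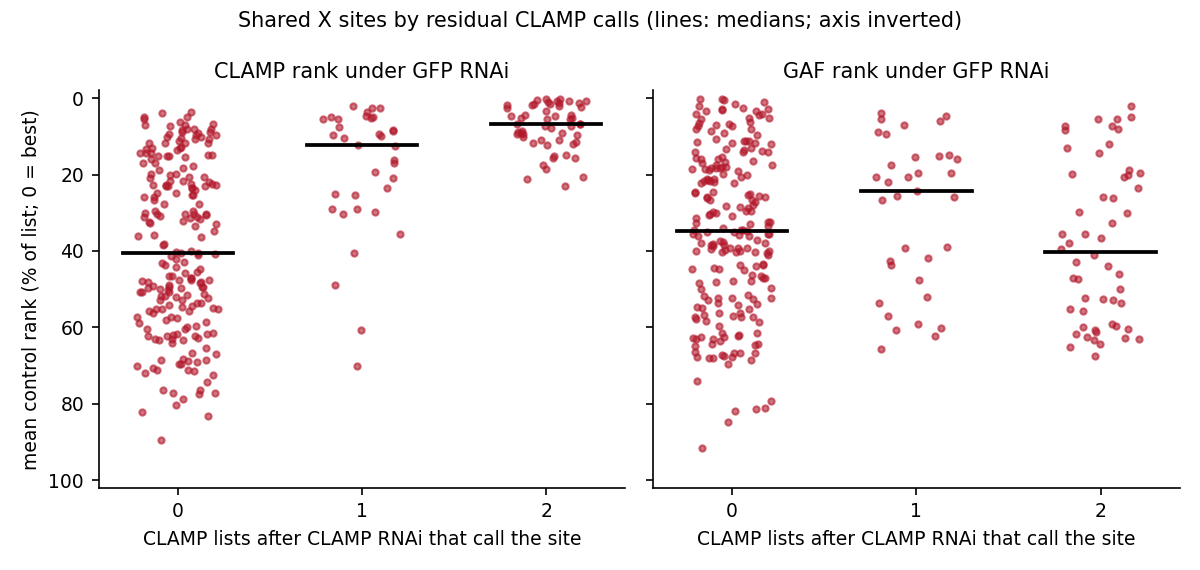
Mean rank of each shared X site in the control CLAMP lists (left) and control GAF lists (right), as a percentage of list length on an inverted axis with the best rank at the top, by the number of CLAMP lists after CLAMP RNAi that call the site; points are sites and lines are medians. The median CLAMP rank goes from 40.4% at sites in 0 lists to 6.80% at sites in 2 lists, while the GAF medians are 34.6% and 40.2%.

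Single sites show the range of residual CLAMP. At X 8699689 to 8700256, the member with the best mean rank in the CLAMP RNAi lists, CLAMP enrichment was 9.53, 8.56 and 4.32 under GFP RNAi and 10.0004 and 5.94 after CLAMP RNAi. At X 7954886 to 7955761 it was 10.01, 5.88 and 7.44 under GFP RNAi and 9.07 and 6.11 after CLAMP RNAi. At X 18264745 to 18265798, the lost member with the best control CLAMP rank, it was 8.65, 7.07 and 4.30 under GFP RNAi, 9.48 and 3.83 after GAF RNAi, and no peak was called in either CLAMP RNAi list. GAF stayed called there in all 8 GAF lists, with enrichment of 7.11, 9.85 and 9.54 after CLAMP RNAi. The 4 members without a CLAMP call after GAF RNAi began at X 19247581 (ending at 19247887), X 1845477 (1846339), X 12440963 (12441285) and X 19216470 (19216750). None of these 4 was called after CLAMP RNAi either, and at the first of them control CLAMP enrichment was 3.78, 3.87 and 2.81.

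After CLAMP RNAi, GAF was called at a share of the members that fell inside the control range. Under GFP RNAi, GAF libraries 1 to 3 called 98.3%, 97.3% and 78.4% of members. After CLAMP RNAi the shares were 94.4%, 90.7% and 96.7%, and after GAF RNAi 87.7% and 70.8%. All 3 CLAMP RNAi libraries lay above both GAF RNAi libraries, and the lowest share belonged to GAF RNAi replicate 2, whose list of 18267 peaks is the longest of the RNAi treatments. The means were 93.9% ± 3.01 (SD, n = 3) after CLAMP RNAi and 79.2% ± 11.98 (SD, n = 2) after GAF RNAi, a difference of 14.7 points (exact permutation p = 0.2, the lowest that 3 and 2 libraries allow; adjusted 0.45). It was 23.1 points without GAF RNAi replicate 1 and 6.20 without replicate 2, 9.24 at the sites called in every control list, and 5.76 with peaks of −log10 q of at least 5 (exact permutation p = 0.8).

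After CLAMP RNAi, 273 members (90.7%) were called in every GAF list, where 79.3% of all 3219 GAF control sites were. After GAF RNAi it was 198 members (65.8%), where 61.1% of all GAF sites were. Among shared autosomal sites the shares were 91.1% after CLAMP RNAi and 76.6% after GAF RNAi. The loss of GAF in every list after CLAMP RNAi was met by 1 member (0.332%), where 0.342% of all GAF sites met it, and after GAF RNAi by 4 (1.33%), where 1.62% of all did. The 1 member that lost GAF after CLAMP RNAi, X 1972013 to 1972486, also lost it after GAF RNAi. Its GAF enrichment was 2.70, 2.69 and 2.63 under GFP RNAi, below the first quartiles of the members that each control library called (3.87, 3.89 and 3.54). Single libraries set these counts: the 4 losses after GAF RNAi became 51 without GAF RNAi replicate 1, 9 without GAF RNAi replicate 2 and 18 without control replicate 3, and the 1 loss after CLAMP RNAi became 7 without control replicate 3, 3 without CLAMP RNAi replicate 3 and 2 without control replicate 2.

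Against X GAF sites without CLAMP, the shared sites were called more often in each of the 5 GAF libraries of the RNAi treatments. The sites without CLAMP were called at 84.2%, 77.5% and 90.7% after CLAMP RNAi and at 74.9% and 59.5% after GAF RNAi. The shared sites exceeded them by 10.7 points ± 2.89 (SD, n = 5), in 5 of 5 libraries (exact sign-flip permutation p = 0.0625, the smallest possible; adjusted 0.375). Between treatments no difference of the excess passed the test, with 9.77 points ± 3.61 (n = 3) after CLAMP RNAi and 12.03 points ± 1.07 (n = 2) after GAF RNAi (SDs; difference −2.26, exact permutation p = 0.6); that difference was −3.98 without CLAMP RNAi replicate 2, −0.377 without CLAMP RNAi replicate 3 and −1.51 without GAF RNAi replicate 1. With peaks of −log10 q of at least 5 the excess was 16.1 points, and it was smaller with other control sites. With sites called in every control list it was 2.59 points, and with sites rebuilt without control GAF replicate 1 or replicate 2 it was 3.01 and 2.42 points.

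**Figure D3:**
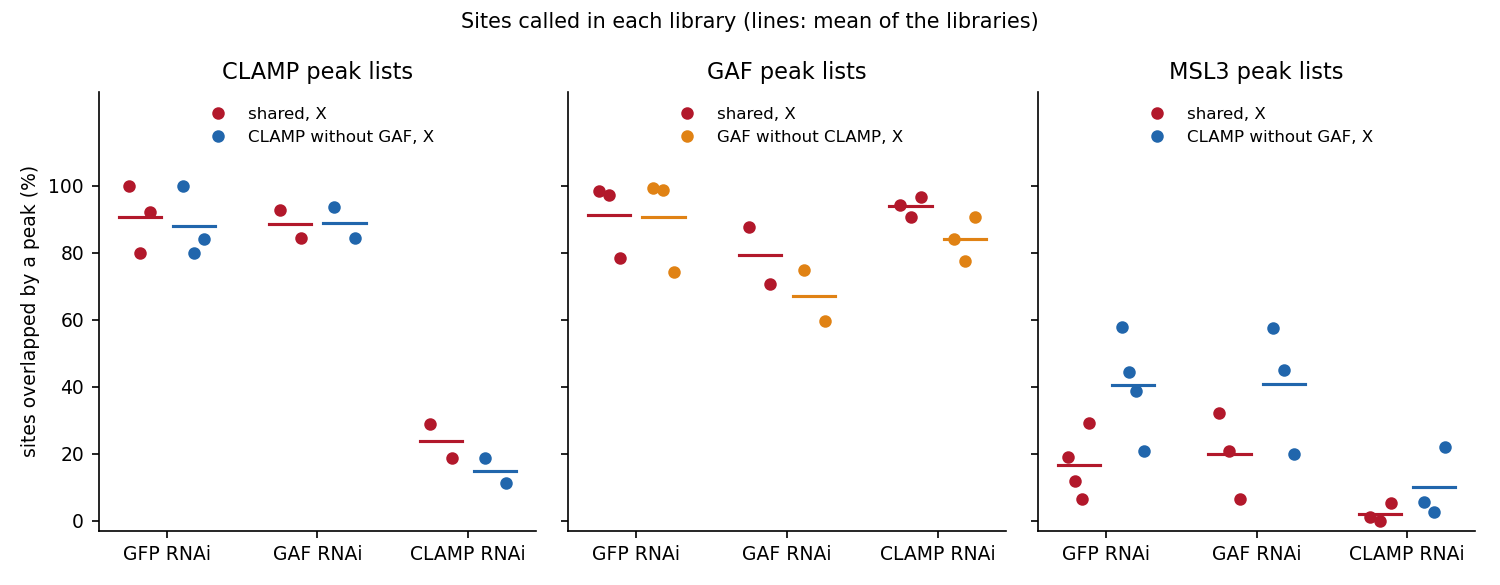
Percentage of sites overlapped by a peak in each library, by RNAi treatment, for CLAMP, GAF and MSL3 lists; red points are the 301 shared X sites, blue the 465 X CLAMP sites without GAF, orange the 311 X GAF sites without CLAMP, and lines are means of the libraries. After CLAMP RNAi the shared sites are at 28.9% and 18.6% in CLAMP lists, at 90.7% to 96.7% in GAF lists and at 0 to 5.32% in MSL3 lists.

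The rank of GAF at the shared sites was compared between treatments. To set lists of different length side by side, each GAF list was taken at the 2676 peaks of the shortest, and a site outside the list was given the last rank. Against the GAF RNAi lists, which took no part in choosing the sites, 90 members (29.9%) had a better rank in every CLAMP RNAi list, where 13.1% of all GAF control sites did, and 19 (6.31%) a worse one, where 10.1% did. Among shared autosomal sites the shares were 15.8% and 14.3%, and among X GAF sites without CLAMP 15.1% and 6.43%. Against the GFP RNAi lists, which did choose the sites, the counts are a description only: 57 members (18.9%) had a better rank in all 3 CLAMP RNAi lists, where 7.49% of all GAF sites had, and 14 (4.65%) a worse one, where 7.05% had. These counts were added after the data had been seen and carry no test. Without control replicate 1 the 57 became 86, and the 14 became 41 without control replicate 3, 33 without CLAMP RNAi replicate 3 and 22 without control replicate 2. Without GAF RNAi replicate 1 the 90 became 151 and the 19 became 45; the 19 also became 52 without GAF RNAi replicate 2 and 32 without CLAMP RNAi replicate 3. With ranks taken in the full lists, whose lengths differ, the counts were 4 and 8 against GFP RNAi and 48 and 42 against GAF RNAi. A rank is relative within its list, so a higher place does not by itself mean more GAF on the site.

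Library by library, the mean GAF rank of members was 45.5%, 48.0% and 37.6% of the list after CLAMP RNAi. It was 47.2%, 53.9% and 56.3% under GFP RNAi and 48.8% and 63.4% after GAF RNAi. The CLAMP RNAi and GFP RNAi values overlap. Relative to the X GAF sites without CLAMP in the same list, members were at −18.1, −13.2 and −21.3 points after CLAMP RNAi, at −11.8 and −7.59 after GAF RNAi and at −11.6, −4.07 and −4.39 under GFP RNAi, a negative value being a better rank. Here the 3 CLAMP RNAi libraries lay beyond the other 5. The difference between CLAMP RNAi and GAF RNAi was −7.80 points (exact permutation p = 0.2, the smallest possible). Relative to the autosomal shared sites, members were at −5.98, −7.21 and −10.5 points after CLAMP RNAi and at −0.648 and 5.07 after GAF RNAi. Under GFP RNAi they were at −1.32, −1.61 and 1.15. Here the difference between CLAMP RNAi and GAF RNAi was −10.1 points, also with an exact permutation p of 0.2. Both tests were added after the data had been seen and are unadjusted.

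**Figure D4:**
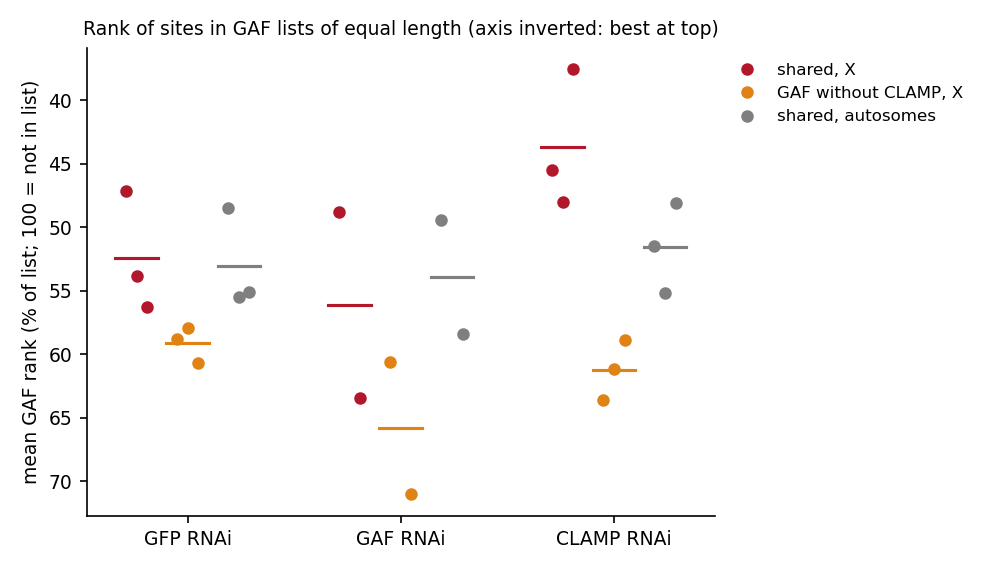
Mean rank of sites in GAF lists of equal length, as a percentage of the list on an inverted axis with the best rank at the top and 100% for sites outside the list, by RNAi treatment; points are libraries and lines are their means. Shared X sites (red) are at 37.6% to 48.0% after CLAMP RNAi, while X GAF sites without CLAMP (orange) are at 58.9% to 63.6% in the same libraries. Autosomal shared sites (grey) are at 48.1% to 55.2% there. Under GFP RNAi the red points are at 47.2% to 56.3% and the orange points at 58.0% to 60.7%.

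GAF rank was also set beside control CLAMP rank, again as a description with no test, since the control lists of both factors chose the sites and the 57 members below were picked by their GAF ranks. The 57 members with a better GAF rank after CLAMP RNAi had a median control CLAMP rank of 11.96%, the 14 with a worse rank 50.1% and the remaining 230 members 29.1%. When members were ordered by control CLAMP rank alone, the 101 strongest had median GAF ranks of 50.7%, 53.8% and 55.8% under GFP RNAi and 34.9%, 38.3% and 25.4% after CLAMP RNAi. After GAF RNAi those 101 were at 48.5% and 86.0%. The 100 weakest were at 41.3%, 58.4% and 58.3% under GFP RNAi and at 47.2%, 50.4% and 28.2% after CLAMP RNAi. The 351 autosomal shared sites of strongest CLAMP rank were at 49.8%, 50.6% and 53.6% under GFP RNAi and at 45.2%, 53.8% and 43.9% after CLAMP RNAi. The difference between X and autosomes in this split was not tested.

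Single sites with large changes of GAF rank are given next; they were picked after their values were seen. At X 4578277 to 4578987, GAF enrichment was 2.61 and 3.23 with no peak in replicate 3 under GFP RNAi, 2.64 and 3.14 after GAF RNAi, and 10.7, 8.17 and 8.84 after CLAMP RNAi. Its CLAMP enrichment was 10.7, 8.56 and 6.05 under GFP RNAi and 7.43 and 5.09 after CLAMP RNAi, so a CLAMP peak remained. In the equal-length lists its GAF peak ranked at 12.2%, 9.34% and 16.3% after CLAMP RNAi and was outside all 3 control lists. At X 7214806 to 7215270, GAF enrichment was 2.36 and 3.37 with no peak in replicate 3 under GFP RNAi, and 10.3, 8.40 and 8.41 after CLAMP RNAi. At X 16985122 to 16985542, one of the members with a lost CLAMP call, all 3 control lists called GAF. There CLAMP enrichment was 7.93, 6.54 and 7.40 under GFP RNAi with no peak after CLAMP RNAi, and GAF enrichment was 2.26, 4.23 and 4.15 under GFP RNAi, uncalled after GAF RNAi, and 11.04, 8.51 and 9.23 after CLAMP RNAi. These folds belong to separate libraries of unknown depth and are set side by side only as values.

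MSL3 covered few of the shared sites, and in several libraries its regions were weak by the authors' q. The highest −log10 q of any region was 0.0919, 0 and 11.6 in CLAMP RNAi replicates 1 to 3. It was 0.931 in control replicate 3 and 0.437 in GAF RNAi replicate 3, and 2.16 to 17.1 in the remaining libraries. A low share called in a list of weak regions cannot be told apart from a poor library. Under GFP RNAi the MSL3 libraries 1 to 4 called 18.9%, 11.96%, 6.31% and 29.2% of members. After GAF RNAi the shares were 32.2%, 20.9% and 6.31%, within a range that overlaps the control. After CLAMP RNAi they were 0.997%, 0 and 5.32%, or 3, 0 and 16 sites, all below the lowest control library. The means were 16.6% ± 9.87 (SD, n = 4) under GFP RNAi, 19.8% ± 13.0 (SD, n = 3) after GAF RNAi and 2.104% ± 2.83 (SD, n = 3) after CLAMP RNAi.

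The difference between CLAMP RNAi and GFP RNAi was −14.5 points (exact permutation p = 0.0571, the smallest possible for n = 4 and 3; adjusted over 6 tests 0.171). Without control replicate 4, which had the highest control share, this difference was −10.3 points. That between GAF RNAi and GFP RNAi was 3.21 points (exact permutation p = 0.743; adjusted 0.891), and it turned to −2.99 without GAF RNAi replicate 1 and to −0.221 without control replicate 3, while it was 9.97 without GAF RNAi replicate 3, 7.42 without control replicate 4 and 1.66 without control replicate 2. The MSL3 lists after CLAMP RNAi held 103 to 12136 regions and those under GFP RNAi 668 to 31717, so list length moved with the treatment. In lists of 103 regions each, members were called at 5.98%, 4.32%, 2.33% and 0 under GFP RNAi and at 0.664%, 0 and 0.664% after CLAMP RNAi, where the groups overlap through control replicate 4 (difference −2.71 points, exact permutation p = 0.229). Members with MSL3 in at least 3 control lists numbered 25, and 14 of these (4.65% of members) had none after CLAMP RNAi, where 4.11% of all CLAMP control sites and 18.9% of X CLAMP sites without GAF met that call. After GAF RNAi 0 members met it, where 0.218% of all CLAMP sites did. These percentages are over all sites of a class, not only those with MSL3 in at least 3 control lists. They therefore also depend on how often MSL3 was called at a class in the control lists.

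MSL3 was less frequent at shared sites than at X CLAMP sites without GAF in 9 of 10 MSL3 libraries. The latter were called at 57.8%, 44.3%, 38.7% and 20.9% under GFP RNAi, at 57.6%, 44.9% and 20% after GAF RNAi and at 5.59%, 2.58% and 21.9% after CLAMP RNAi. The mean difference was −18.2 points ± 15.2 (SD, n = 10; exact sign-flip permutation p = 0.00977, adjusted over 6 tests 0.0586), which does not pass 0.05 after adjustment. In lists of 103 regions it was −8.71 points (exact sign-flip permutation p = 0.00391, unadjusted). Control replicate 4 was the exception, with 29.2% of shared sites against 20.9%. In lists of 103 regions it called 0 of the X CLAMP sites without GAF, where control replicates 1 to 3 called 20.6%, 20.9% and 21.3%. In full lists it called 44.3% of autosomal shared sites, where replicates 1 to 3 called 7.31%, 2.09% and 0.285%. The gap of shared sites to X CLAMP sites without GAF was −23.8 points ± 21.7 under GFP RNAi (n = 4), −21.0 ± 6.40 after GAF RNAi (n = 3) and −7.93 ± 7.59 after CLAMP RNAi (n = 3). No change of it under either RNAi passed the test, with a difference to GFP RNAi of 2.78 points for GAF RNAi (exact permutation p = 0.914) and of 15.9 points for CLAMP RNAi (exact permutation p = 0.229). The former turned to −2.25, −0.0593 and −0.0781 on leaving out control replicates 1, 2 and 3 in turn, and to −0.893 on leaving out GAF RNAi replicate 3. Without control replicate 4, the library that stands apart, the differences were 13.5 points for GAF RNAi and 26.6 points for CLAMP RNAi (exact permutation p = 0.1 each, the smallest possible, unadjusted). Without GAF RNAi replicate 1 or 2 the former was 4.97 and 4.27. Against shared sites on autosomes, coverage of the X members was 1.81 points higher, in 6 of 10 libraries (exact sign-flip permutation p = 0.521; adjusted 0.782). In lists of 103 regions it was 2.19 points (exact sign-flip permutation p = 0.0215) and with regions of −log10 p of at least 2 it was 3.78 points (p = 0.0234), both unadjusted. In full lists it was 0.633 and 2.85 points on leaving out GAF RNAi replicates 1 and 2 in turn, and 0.717, 0.912 and 3.69 points on leaving out control replicates 1, 2 and 4.

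Per site, 134 members (44.5%) were in no MSL3 list, 77 in 1, and 25 (8.31%) in 5 or more of the 10. Of X CLAMP sites without GAF, 166 (35.7%) reached 5 lists, of X GAF sites without CLAMP 4 (1.29%). The 25 members in 5 or more lists had a median control CLAMP rank of 14.5% and the 276 others 25.9%, while their GAF ranks were 41.0% and 34.5%.

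**Figure D5:**
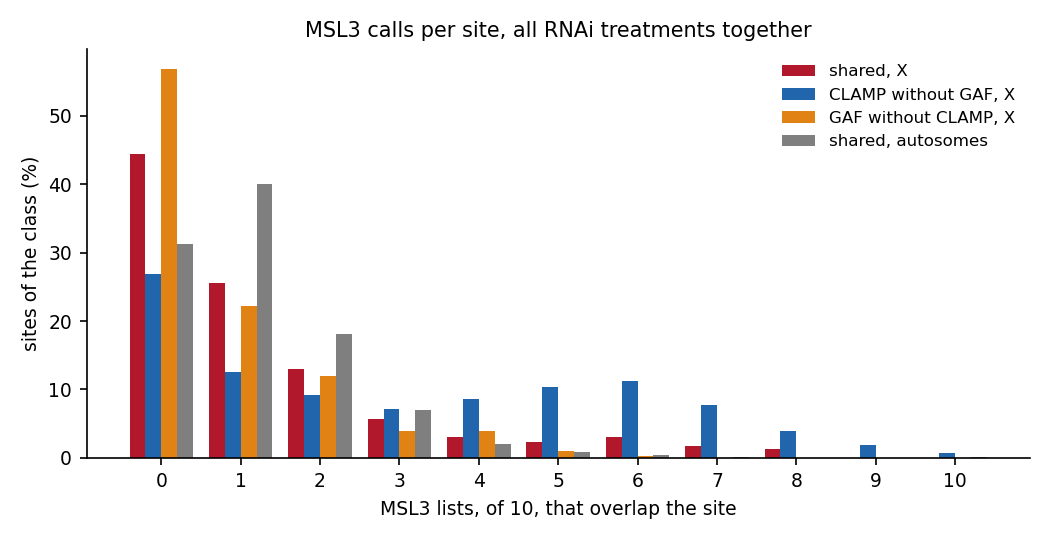
Percentage of sites of each class by the number of MSL3 lists, of 10 over all treatments, that overlap the site; colours are shared X sites (red), X CLAMP sites without GAF (blue), X GAF sites without CLAMP (orange) and shared autosomal sites (grey). The shared X sites stop at 8 lists and 8.31% of them reach 5, against 35.7% of X CLAMP sites without GAF.

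The 4 members with the most MSL3 calls were called in 8 of 10 lists each. At X 2049846 to 2050359, MSL3 enrichment was 1.93, 2.87 and 1.96 in control replicates 1 to 3, 1.92, 1.53 and 2.42 after GAF RNAi, and 1.61 and 1.37 in replicates 1 and 3 after CLAMP RNAi. It kept a CLAMP call in both CLAMP RNAi lists (3.59 and 3.61). X 20282635 to 20283130 also kept CLAMP (4.97 and 4.54) and had MSL3 enrichment of 1.81, 2.14, 2.08 and 2.16 in the 4 control lists. X 7214806 to 7215270, one of the sites with a large change of GAF rank, had MSL3 enrichment of 2.50, 3.04 and 2.41 in control replicates 1 to 3 and of 1.78 and 1.78 in replicates 1 and 3 after CLAMP RNAi. The last of the 4, X 1972013 to 1972486, was the member whose GAF call was lost under both treatments. Its MSL3 enrichment was 2.43, 3.62 and 2.64 in control replicates 1 to 3 and 2.27, 1.68 and 2.42 after GAF RNAi, and MSL3 was called in 2 of the 3 libraries after CLAMP RNAi. After CLAMP RNAi, MSL3 replicate 1 covered 3.70% of the 54 members with CLAMP in both lists and 0.472% of the 212 with none, replicate 2 covered none of either, and replicate 3, the longest list of that treatment, covered 5.56% and 5.19%.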

How the data were processed

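Of 37 samples, 25 have a peak list; the 12 inputs were not analysed here. Per the submitters' processing notes, Bowtie and MACS2 2.1.1 were used, with the genome build dm3. Which options and which control MACS2 was given is not given in the sources used here. Lists were deposited per library, as narrow peaks for CLAMP and GAF and broad regions for MSL3. Column 7 of the deposited lists is the authors' fold enrichment, a ratio, and columns 8 and 9 are the authors' −log10 p and −log10 q for that library. They hold no read counts, so the depth and its precision are unknown.

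The members and all lists of sites were chosen with earlier results of these data known. A site counted as called where a peak shared at least 1 bp with it. A library was the unit of replication. Percentages of sites called were tested between treatments by exact permutation, two-sided, and site classes within libraries with exact sign-flip permutation tests, adjusted by Benjamini-Hochberg over 6 tests of MSL3 and 6 of CLAMP and GAF. The summit comparison, with 1 test each on X and autosomes, and the GAF rank counts were added after seeing the data. So were the unadjusted tests of mean GAF rank, 1 each against X GAF sites without CLAMP and autosomal shared sites. Equal-length lists hold each library's peaks of highest −log10 q. Alternatives were stricter control sites, 50% overlap, the CLAMP summit inside the GAF site, limits on −log10 q or p, covered bases, a block for the replicate number, and the omission of single libraries. Between treatments, libraries of the same antibody and replicate number showed no clear pairing (correlations of deviations −0.202 to 0.183). With only 2 or 3 shared numbers per comparison, this check cannot exclude one. A link between antibodies by replicate number was not tested. The labels name no batch or date.

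Sites were named by rule: the 10 best by mean control rank, up to 5 kept and 5 lost per comparison, the 10 with most MSL3 lists, the 3 of smallest overlap and the longest chain; the text gives the leading ones. Coordinates are 1-based on dm3. No dm3 sequence or annotation was used, so no genes or motifs are given. Overlap, merging and the exact tests were checked on simulated data. Computations used Python 3.11.15, numpy 2.4.6, scipy 1.17.1 and matplotlib 3.10.9.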

Additional observations from a re-analysis of the deposited data

Results flagged for a closer look

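Control MSL3 replicate 4 stood apart from the other control libraries in how MSL3 was divided between shared sites and X CLAMP sites without GAF. In it the shared sites were called 8.38 points more often, while in replicates 1 to 3 they were called less often (−38.9, −32.3 and −32.4 points). Its gap to the nearest library was 0.861 of the range, above Dixon's critical value for 4 samples. This was 1 of 3 groups looked at, and chance puts about 1 in 20 groups past that value.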

How the results depend on the processing

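List length differed between treatments, and the depth behind it is unknown: the CLAMP difference between RNAi treatments was −64.8 points in full lists and −4.65 points at equal length. With sites rebuilt without control CLAMP replicate 1 or 2, the MSL3 gap between shared and CLAMP-alone X sites, GAF RNAi minus GFP RNAi, turned to −1.27 and −1.14. At equal length without control MSL3 replicate 4 (668 regions), MSL3 at shared sites, GAF RNAi minus GFP RNAi, turned to −0.443. Without that replicate, in lists of 103 regions, MSL3 at X minus autosomal shared sites was 2.54 (exact sign-flip permutation p = 0.00781). Without CLAMP RNAi replicate 2 the lists held 668 regions and this difference was 5.54 (exact sign-flip permutation p = 0.0117). With all libraries it was 2.19 in lists of 103 regions and 3.78 at −log10 p of at least 2. CLAMP at shared minus CLAMP-alone sites, CLAMP RNAi minus GAF RNAi, turned to −6.59 at equal length. At −log10 q of at least 5 it was −3.44, but that limit left no peak in CLAMP RNAi replicate 2. At the same limit, GAF at shared minus GAF-alone sites turned to 4.53. The cause was not tested.

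At equal length, CLAMP lists lost 0 members after CLAMP RNAi (430 peaks) and 10 after GAF RNAi (2178 peaks). In GAF lists, of 2676 peaks, the counts were 4 and 1. The cause was not tested. GAF rank counts in full lists were 4 better and 8 worse against GFP RNAi, and 48 and 42 against GAF RNAi. At the 166 sites in every control list they were 26, 6, 43 and 11.

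Leaving out 1 library gave −2.99 to 9.97 for MSL3 at shared sites, GAF RNAi minus GFP RNAi, and −2.25 to 13.5 for its gap to CLAMP-alone sites. Lost members ranged from 130 to 189 and 4 to 16 in CLAMP lists, and from 1 to 7 and 5 to 51 in GAF lists. Rank counts ranged from 69 to 86 better and 19 to 41 worse against GFP RNAi, and from 99 to 151 and 24 to 52 against GAF RNAi. The summit separation kept its direction and stayed past 0.05 in all 21 alternatives (23.1 to 33.9 bp).

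With the replicate number as a block, the MSL3 gap of −18.2 points over all libraries had an exact sign-flip permutation p of 0.25. The smallest possible there was 0.125. Over all blocked tests the smallest possible exact permutation p ran from 0.125 to 0.5, so none could pass the threshold. The block therefore cannot show whether a call depends on the pairing. The differences between treatments kept their direction under it. The correlations that check the pairing ran from −0.202 to 0.183.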
